A study of Mus musculus with 30 samples.

Results

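Skeletal muscle of the forelimb was compared between mice with the spinal cord cut at a high thoracic level (T3) and mice with the cord cut at a low thoracic level (T9). The muscle was the triceps brachii, whose motor neurons lie in the neck part of the cord, above both lesions. The members are the 12 triceps libraries of the transected mice, 6 after T3 and 6 after T9, chosen by their labels from 30 libraries in all. Muscle loses mass when protein breakdown outpaces synthesis. Breakdown runs through the proteasome, fed by ubiquitin ligases such as MuRF1 (gene Trim63) and atrogin-1 (gene Fbxo32), and through lysosomes, which digest cell parts delivered by autophagy. Glucocorticoids, hormones of the adrenal cortex, are known to raise these genes in muscle through the glucocorticoid receptor and the FoxO factors, and insulin and IGF1 are known to hold them down.

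The series asks whether the level of a cord lesion sets the hormonal state that follows it. The triceps lets the levels be compared in a muscle whose motor neurons lie above both lesions. All mice were male and were sampled 3 days after surgery. The groups used here are T3 transection, T9 transection and sham surgery, with 6 triceps libraries each, and the gastrocnemius, a hind limb muscle, with 4 libraries per transected group. No source used here gives strain or age or names a transgene, and no label says outright that each library is a separate animal, so p-values measure the spread between these samples.

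The deposited values are log2 CPM (reads of a gene per M reads, where M stands for 1000000) for 11249 genes, from polyA RNA sequenced with a strand-specific kit. The 12 libraries held 13.9 to 23.4 M reads, except T3 replicate 5 with 88.8 M. Defining genes of skeletal muscle were abundant: skeletal actin (Acta1) was at 13079 to 25117 CPM in the 12 libraries, muscle creatine kinase (Ckm) at 7040.5 to 12601 and the fast myosin Myh4 at 7098 to 36475. Mitochondrially encoded genes took 10.4% to 16.6% of the reads after T3 and 12.1% to 17.5% after T9. Among these 12, the lowest library medians were 3.71 on the log2 scale in T3 replicate 4 and 3.67 in T9 replicate 1, against 4.07 and 4.03 for the highest of each group. The 6 triceps sham libraries, which enter the main fit, had medians of 3.29 to 3.98, lowest in sham replicates 3 (3.29) and 4 (3.55). Sham replicate 4 also held the macrophage gene Lyz2 at 705 CPM, against 9.01 to 25.9 in the other triceps sham libraries. In each triceps group, replicates 5 and 6 carry the number 57 in their description and replicates 1 to 4 the number 60, as do all gastrocnemius libraries used here, whose meaning no source used here gives. It was kept as a term in the model, and values within each number are given as T3 minus T9 means of those libraries.

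The triceps transcriptome differed between the lesion levels. Of 11249 genes tested with limma, 855 passed an adjusted p of 0.05 (7.60%), of which 557 were higher after T3 (4.95%) and 298 were lower (2.65%), and 2347 genes had an unadjusted p under 0.05. Quantile normalization gave 530 higher and 455 lower, so that the share of calls that were higher moved from 65.1% to 53.8%. The T3 and T9 libraries did not overlap at all for 559 genes (4.97%), 439 of them among the calls. Counts for the gene lists below are to be read against these shares of all genes. Fitted alone, the libraries of number 60 (4 against 4) gave 50 calls (0.444%) and those of number 57 (2 against 2) gave 352 (3.13%). All 855 called genes had the same sign within number 60 and within number 57. The calls came from these same libraries pooled, so the equal signs are no separate evidence. T3 replicate 5, the most deeply read library, weighed most on the total: 539 genes passed without it, and no other library moved the total by more than 1.5 times. The 298 lower calls became 168 without T3 replicate 5, 183 without T9 replicate 5, 192 without T9 replicate 6 and 196 without T3 replicate 2, and the 557 higher calls became 371 without T3 replicate 5. The median change over all genes was 0.05 for T3 against T9, and on the same log2 scale 0.23 for T3 against sham and 0.17 for T9 against sham. Those comparisons share the sham libraries, so their values are only set side by side below. In bulk muscle, fewer cells of a type and less RNA per cell cannot be told apart.

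**Figure D1:**
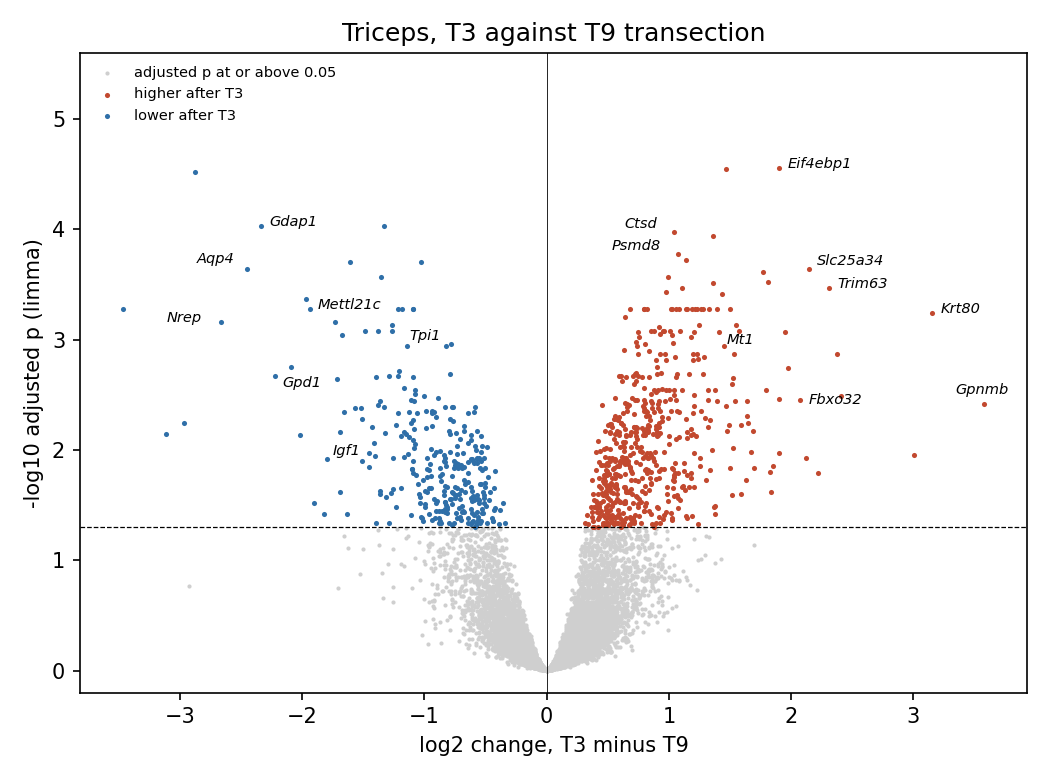
Change of each of 11249 genes in the triceps, as log2 change T3 minus T9 on the x axis and -log10 adjusted p (limma) on the y axis. Red points are the 557 genes higher after T3, blue points the 298 lower ones, grey points all others, and the dashed line is the adjusted p threshold of 0.05.

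The ubiquitin ligases that mark muscle atrophy were higher after T3 than after T9. Trim63 (chr4:134315120-134329629 on GRCm38), which codes for MuRF1, was at 565 to 2561 CPM (median 1558) after T3, 174 to 360.4 CPM (median 312) after T9 and 223 to 531 CPM (median 276) after sham surgery. Every T3 library lay above every T9 and every sham library, while the T9 and sham ranges overlapped. Its log2 change from T9 to T3 was 2.31 ± 0.31 (± SE, limma, n = 6 and 6, adjusted p = 0.000342), with 2.36 within number 60 and 2.22 within number 57. Against sham it changed by 2.18 after T3 (adjusted p = 0.000115) and by -0.14 after T9 (adjusted p = 0.828). Fbxo32 (chr15:58175879-58214932), which codes for atrogin-1, was at 240.1 to 1709 CPM (median 1015) after T3 and 91.7 to 291 CPM (median 242) after T9. Of the 6 T3 libraries, 5 lay above all T9 libraries and the lowest, replicate 4, fell inside the T9 range (log2 change 2.08 ± 0.39, adjusted p = 0.00353). Eif4ebp1 (chr8:27260329-27276674), whose product 4E-BP1 holds back cap-dependent translation and which was among the smallest adjusted p-values of the comparison, was at 172 to 316 CPM (median 230.1) after T3 and 46.9 to 76.8 CPM (median 65.5) after T9. Its groups did not overlap, and T9 lay within the sham range of 48.8 to 86.1 CPM (median 57.95) except at its lower end (log2 change 1.90 ± 0.18, adjusted p = 2.75e-05).

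Of 28 measured ubiquitin ligases and atrogenes, 5 rose and none fell, and their median change was 0.48, against 0.05 over all genes. The other members that rose were Usp14, a deubiquitinase bound to the proteasome (log2 change 0.77 ± 0.18, adjusted p = 0.0135), and Ube4b, a ubiquitin chain elongation factor (0.76 ± 0.22, adjusted p = 0.0394), whose call was lost without sham replicate 1, T3 replicates 1, 2, 3 or 5 or T9 replicates 1, 4, 5 or 6 (adjusted p up to 0.115 without 1 library). Leaving out 1 library at a time left 4 to 8 members called, with 8 without T3 replicate 4. Within number 60 alone 2 members passed and within number 57 alone 5. Foxo1 and Foxo3, the factors known to drive Trim63 and Fbxo32, did not pass: Foxo1 was at 13.7 to 78.7 CPM (median 38.3) after T3 and 14.7 to 89.9 CPM (median 17.5) after T9 (log2 change 0.44 ± 0.38, adjusted p = 0.575), and Foxo3 changed by 0.23 ± 0.31 (adjusted p = 0.764). Their ranges overlapped almost whole.

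The 300 bases around the start of Trim63 (250 before and 50 after it; RefSeq, GRCm38.p6, chr4:134314870-134315169, plus strand) are shown because they hold a glucocorticoid response element and a FoxO site side by side. Capitals mark both, the element first.
Trim63: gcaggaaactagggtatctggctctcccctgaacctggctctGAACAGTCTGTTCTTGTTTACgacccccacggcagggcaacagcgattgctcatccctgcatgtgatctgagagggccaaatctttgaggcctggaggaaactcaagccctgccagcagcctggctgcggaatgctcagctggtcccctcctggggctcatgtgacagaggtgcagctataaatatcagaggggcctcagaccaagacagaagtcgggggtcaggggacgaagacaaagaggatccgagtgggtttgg
The element was searched on both strands as AGAACANNNTGTTC and the FoxO site as GTAAACA. They do not overlap and stand 208 to 195 and 194 to 188 bases before the start. Of the windows of 8375 tested genes in the sequence table, 3 hold the strict element (0.0358%), and of 434 genes that were higher after T3 it was found in 1, Trim63. The other carriers, Pot1b and Sgk1, were not called. The FoxO letters are in 257 of the 8375 windows (3.07%), in 16 of 434 windows of the higher genes (3.69%) and in 12 of 211 windows of the lower genes (5.69%). These counts describe letters in short windows and say nothing of binding.

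Proteasome subunits formed the list with the largest share of calls. Of 32 measured, 25 rose after T3 relative to T9 (78.1%, against 4.95% of all genes) and none fell. All 32 had a positive change, with a median of 0.80 and a range of 0.33 to 1.33. The median of the same members was 0.86 for T3 against sham and 0.10 for T9 against sham. For 21 of the 32 the T3 and T9 libraries did not overlap, against 559 of all 11249 genes (4.97%). Psmd4, for a ubiquitin receptor of the regulatory particle, was at 287 to 673 CPM (median 479.8) after T3 and 157 to 223 CPM (median 178) after T9. Every T3 library exceeded every T9 library, and the T9 libraries kept to the range of sham at 156 to 248 CPM (median 173) (log2 change 1.33 ± 0.19, adjusted p = 0.000525). Psmd8, another regulatory subunit, was at 348 to 449 CPM (median 407) after T3 and 152 to 230.1 CPM (median 189.8) after T9, again with no overlap (1.08 ± 0.13, adjusted p = 0.000169). Psmd13 (1.01 ± 0.16, adjusted p = 0.000837) and Psmd6 (0.80 ± 0.12, adjusted p = 0.000525) complete the 4 subunits with the smallest p. The subunits that did not pass were Psma2, Psma3, Psma6, Psmb1, Psmb6 and Psmb7 of the core particle and Psmc6 of the regulatory base. Which subunits passed depended on the setting: all 32 did with the library median as a covariate. With the trend on transcript length and GC removed, 30 did. Leaving out any 1 library left 21 to 26 called. Centring each library on its median left 17, and within numbers 60 and 57 alone 3 and 9 passed, with medians of 0.77 and 0.84. Interferon-induced genes did not follow: of 29 interferon, MHC class I and immunoproteasome genes none rose and 1 fell, the proteasome activator Psme1 (-0.51 ± 0.12, adjusted p = 0.0119), whose call was lost after centring (adjusted p = 0.0503, with 0.00132 to 0.353 over all settings tried).

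**Figure D2:**
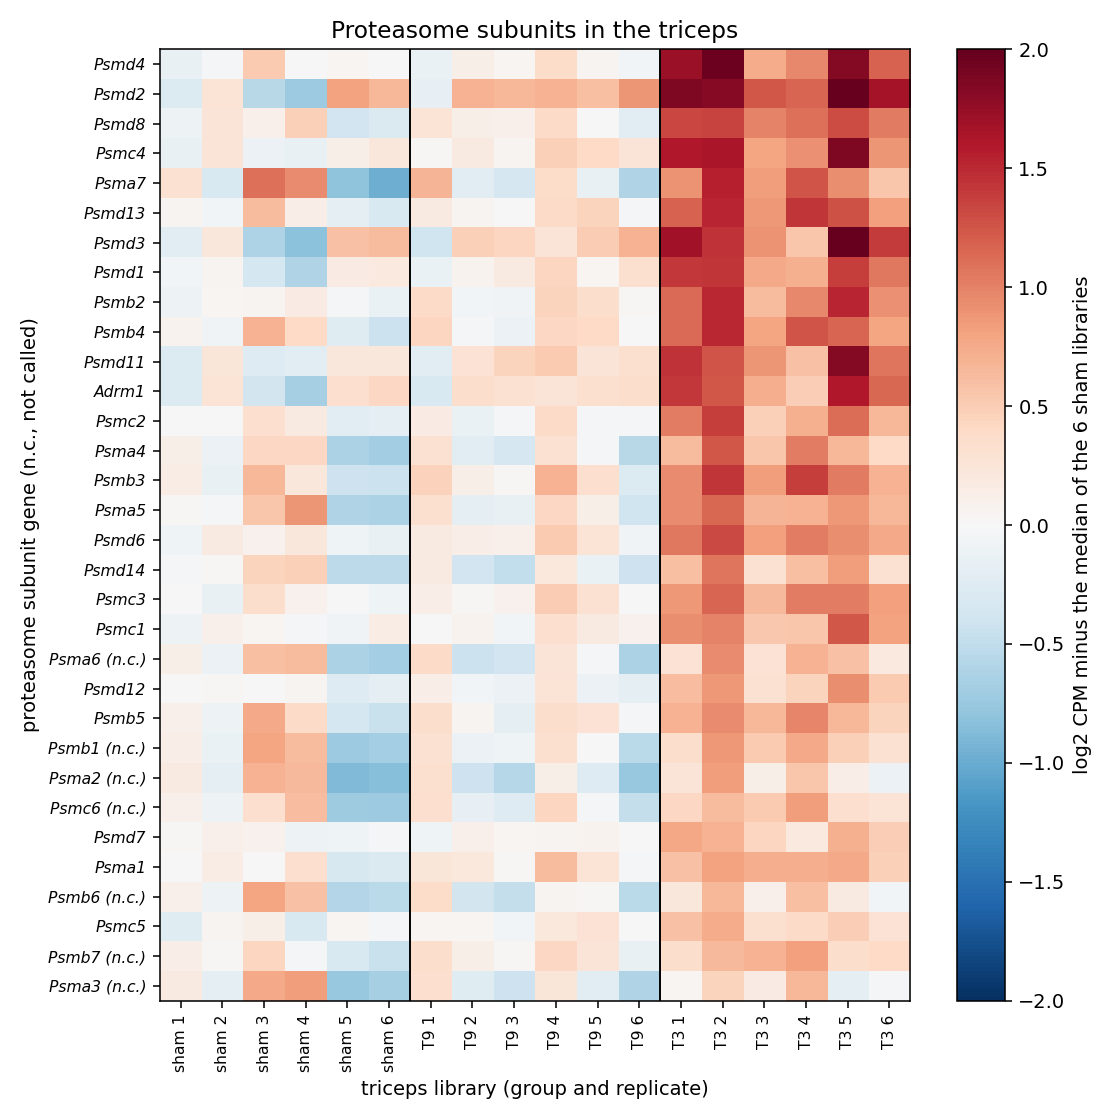
Level of 32 proteasome subunit genes in the 18 triceps libraries, as log2 CPM minus the median of the 6 sham libraries (colour scale, cut at -2 and 2), with genes ordered by their change T3 minus T9 and n.c. marking the 7 genes not called. The 6 T3 columns at the right are red for nearly all subunits, while most T9 values lie nearer the sham median. Some T9 values do not, such as Psmd2 at 0.61 to 0.89 in T9 replicates 2 to 6. Sham replicates 3 and 4 are also red for several core subunits, such as Psma7 (1.10 and 0.94, against 0.56 to 1.56 after T3) and Psma3 (0.75 and 0.83, against -0.20 to 0.66 after T3).

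Genes of autophagy and lysosomes rose in part. Of 31 measured autophagy and lysosome genes, 10 rose and none fell (median 0.33). Ctsd, which codes for the lysosomal protease cathepsin D, was at 619 to 793 CPM (median 683) after T3, 272 to 389 CPM (median 346) after T9 and 246 to 332 CPM (median 281) after sham. The T3 libraries stood well clear of the others (log2 change 1.04 ± 0.12, adjusted p = 0.000106). Ctsl, for cathepsin L, rose by 1.07 ± 0.21 (adjusted p = 0.00447) with 5 of 6 T3 libraries above all T9 libraries. Bnip3, for a mitophagy receptor, was at 298 to 527 CPM (median 315) after T3 and 122 to 207 CPM (median 146) after T9 with no overlap (1.20 ± 0.20, adjusted p = 0.00154). Wipi1, for a protein of the forming autophagosome, rose by 0.68 ± 0.13 (adjusted p = 0.00394). Depp1, a FoxO target of the same list, had its largest change and rose by 2.12 ± 0.49 (adjusted p = 0.0119), with 4 T3 libraries above all T9 libraries. Leaving out 1 library at a time left 7 to 13 members called, and within numbers 60 and 57 alone 1 and 6 passed.

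Genes known to be induced by glucocorticoids were higher after T3 in part. Of 34 measured, 9 rose and none fell, 29 had a positive change and the median was 0.70, with 1.07 for T3 and 0.35 for T9 against sham. Mt1, for the metal-binding protein metallothionein 1, was at 104 to 208 CPM (median 152) after T3, 45.1 to 77.5 CPM (median 55.7) after T9 and 27.02 to 65.7 CPM (median 38.9) after sham. Its T3 libraries lay above all others (log2 change 1.41 ± 0.22, adjusted p = 0.000851). Klf15, for a transcription factor of muscle amino acid use, was at 39.2 to 154 CPM (median 110.4) after T3 and 25.7 to 62.1 CPM (median 44.9) after T9, with 5 of 6 T3 libraries above all T9 libraries (1.12 ± 0.27, adjusted p = 0.0132). Pik3r1, for the regulatory subunit of PI3-kinase, was at 73.4 to 169.7 CPM (median 121) after T3 and 24.5 to 61.3 CPM (median 42.5) after T9, with no overlap (1.57 ± 0.24, adjusted p = 0.000837). Sesn1, for a stress-induced inhibitor of mTORC1, rose by 1.07 ± 0.19 (adjusted p = 0.00205), from 24.7 to 42.05 CPM (median 35.7) after T9 to 40.6 to 86.4 CPM (median 74.7) after T3. Fkbp5, for a chaperone that damps the glucocorticoid receptor, was at 119 to 264 CPM (median 215) after T3 and 47.5 to 142 CPM (median 96.99) after T9 (1.08 ± 0.29, adjusted p = 0.0273), and its call was lost without T3 replicates 1 or 3 or T9 replicates 1, 4, 5 or 6 (adjusted p up to 0.0747 without 1 library). The median of the list was 0.47 within number 60, where no member passed alone, and 1.13 within number 57, where 14 passed, and the difference between the numbers was not tested. Number 57 holds 2 T3 libraries, of which replicate 5 is the deepest of all. Without T3 replicate 1, T9 replicate 1 or T9 replicate 5, 5 members passed in each case.

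Several other known targets of the receptor did not pass. Tsc22d3, which codes for the glucocorticoid-induced leucine zipper, was at 134 to 250.5 CPM (median 179.7) after T3 and 142 to 342 CPM (median 238) after T9, with the T9 median the higher (log2 change -0.34 ± 0.18, adjusted p = 0.291). Against sham it changed by 0.41 after T3 and 0.75 after T9. Per1, Ddit4, Cebpb and Pdk4 had positive changes that failed the threshold, at 0.94 ± 0.46 (adjusted p = 0.256), 0.99 ± 0.65 (0.431), 0.68 ± 0.26 (0.126) and 0.98 ± 0.51 (0.292). The receptor gene Nr3c1 was at 62.05 to 105 CPM (median 76.9) after T3 and 76.7 to 101 CPM (median 94.2) after T9, ranges that overlapped (log2 change -0.17 ± 0.15, adjusted p = 0.59). Hsd11b1, for the enzyme that regenerates active glucocorticoid in tissue, changed by 0.55 ± 0.20 and did not pass either (adjusted p = 0.106).

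The start regions of Mt1 (RefSeq, GRCm38.p6, chr8:94178839-94179138, plus strand) and Sesn1 (chr10:41810324-41810623, plus strand) are shown beside their rise. Capitals mark in Mt1 a looser form of the response element, GNACANNNTGTNC, and in Sesn1 the FoxO letters, on the other strand and after the start.
Mt1: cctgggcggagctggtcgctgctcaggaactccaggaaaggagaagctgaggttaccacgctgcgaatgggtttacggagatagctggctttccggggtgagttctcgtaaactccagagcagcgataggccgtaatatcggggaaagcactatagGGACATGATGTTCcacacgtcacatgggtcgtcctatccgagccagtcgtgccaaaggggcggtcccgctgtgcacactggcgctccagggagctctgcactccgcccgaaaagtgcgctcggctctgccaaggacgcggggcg
Sesn1: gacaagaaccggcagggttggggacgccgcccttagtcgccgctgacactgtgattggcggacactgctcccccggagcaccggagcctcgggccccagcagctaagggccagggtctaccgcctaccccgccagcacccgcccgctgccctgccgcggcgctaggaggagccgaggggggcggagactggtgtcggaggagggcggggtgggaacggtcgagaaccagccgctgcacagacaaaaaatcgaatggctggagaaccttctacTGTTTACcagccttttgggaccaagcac
The looser form, which includes every match of the strict one, is in 36 of 8375 windows (0.430%), in 3 of 434 windows of higher genes and in 1 of 211 of lower genes. Among 30 windows of glucocorticoid-induced genes it is in 3, those of Map3k6, Mt1 and Sgk1. Of these, only Mt1 was called.

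**Figure D3:**
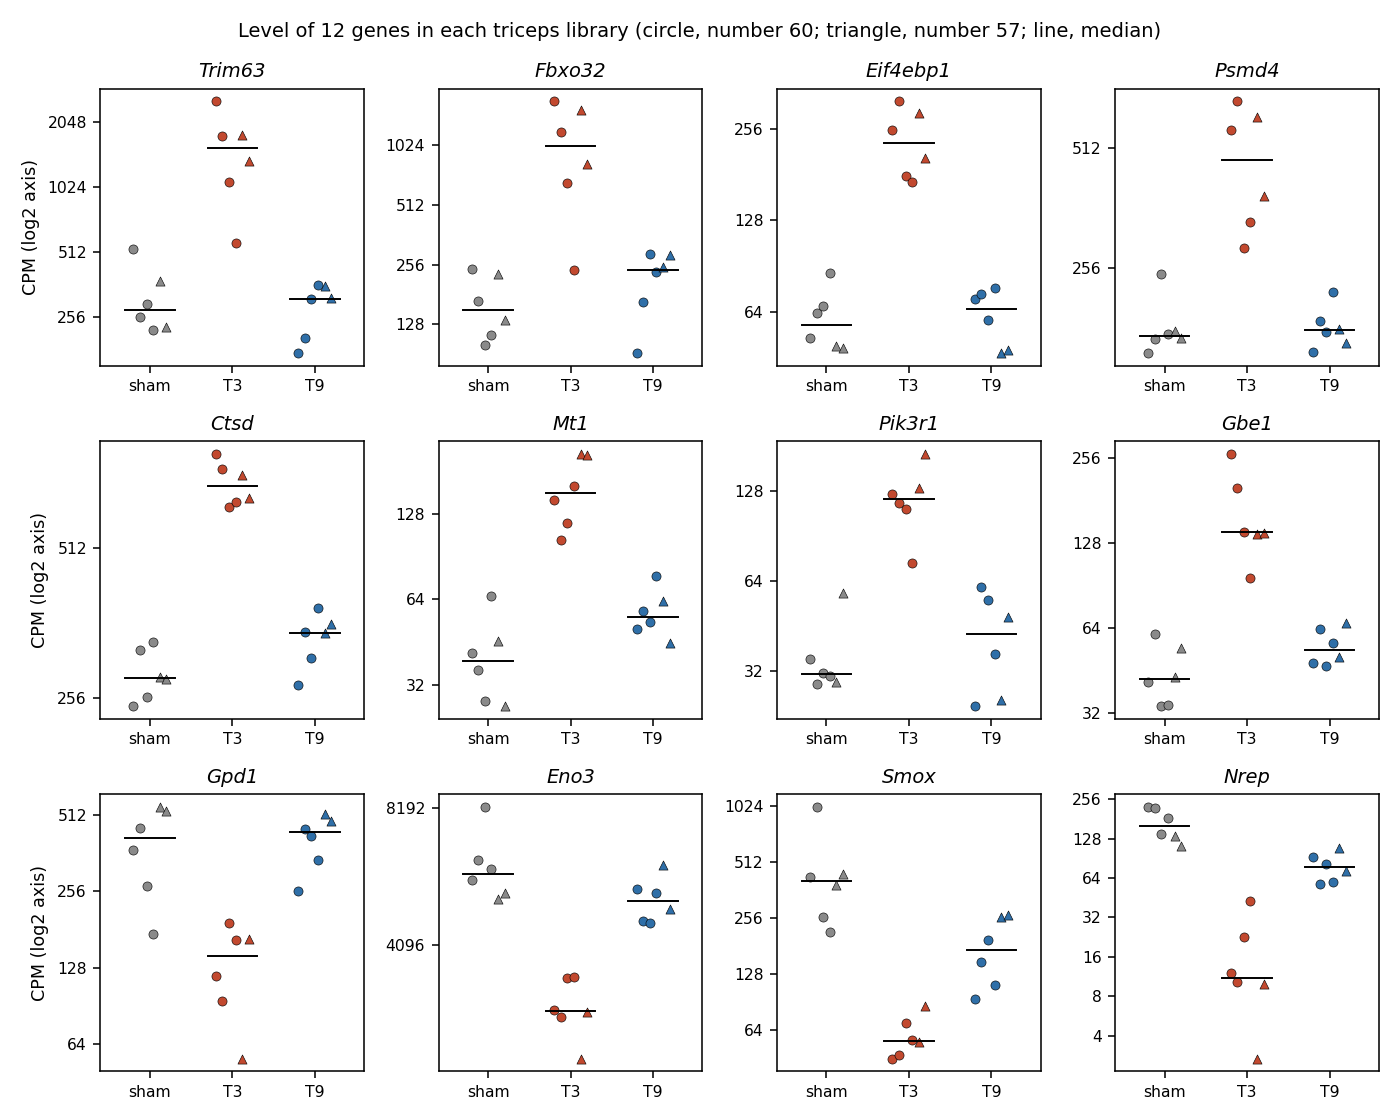
CPM of 12 genes in each of the 18 triceps libraries (y axis, log2 scale) by group, with circles for number 60, triangles for number 57 and a line at the group median. In 11 of the 12 panels the T3 and T9 points do not overlap, and in Fbxo32 the lowest T3 library lies inside the T9 range. The 12 genes were picked from the called genes. Among all 855 calls 439 had no overlap, and among all genes tested 4.97%.

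Genes of several stress lists rose. Of 21 NRF2 and antioxidant genes, 7 rose and none fell (median 0.36), and 4 passed without T3 replicate 5. Gclm, for the modifier subunit of the enzyme that starts glutathione synthesis, was at 25.3 to 56.7 CPM (median 38.3) after T3 and 13.2 to 19.7 CPM (median 15.8) after T9 with no overlap (log2 change 1.24 ± 0.21, adjusted p = 0.00151), and the superoxide dismutase gene Sod1 (0.82 ± 0.16, adjusted p = 0.00454) and the catalase gene Cat (0.91 ± 0.20, adjusted p = 0.00739) rose too. The call of Sod1 was lost after centring each library on its median (adjusted p = 0.0539, with 1.33e-05 to 0.0897 over all settings tried). Of 20 genes of the unfolded protein response, 6 rose and none fell, led by P4hb, for protein disulfide isomerase (0.74 ± 0.14, adjusted p = 0.00353), and Canx, for the chaperone calnexin (0.74 ± 0.16, adjusted p = 0.00788). Of 14 p53-linked genes, 4 rose: Sesn1, Phlda3, Cdkn1a and Eda2r. Cdkn1a, for the cell cycle inhibitor p21, spread widely, at 35.7 to 172 CPM (median 76.97) after T3 and 11.52 to 67.8 CPM (median 24.3) after T9, and 3 T3 libraries lay above all T9 libraries (1.4997 ± 0.36, adjusted p = 0.0146). Of 22 cytosolic heat shock genes, 4 rose and none fell. Hspb7, for a small heat shock protein of the muscle cytoskeleton, was at 946 to 2417 CPM (median 1292) after T3, 333 to 693 CPM (median 533) after T9 and 147 to 480.4 CPM (median 232) after sham, which put T9 between the others by median (1.52 ± 0.27, adjusted p = 0.00251). Hsp90ab1 rose by 0.85 ± 0.21 (adjusted p = 0.0158), a call lost when the model held no term for the number (adjusted p = 0.0516, with 0.00196 to 0.177 over all settings tried). The remaining pair lost their calls when libraries were left out, Cryab without T3 replicates 2 or 5 or T9 replicate 6 (adjusted p up to 0.0595 without 1 library) and Hsph1 without sham replicate 1, T3 replicates 1, 2, 3 or 5 or T9 replicates 1, 2, 3, 5 or 6 (adjusted p up to 0.116 without 1 library), and 2 heat shock genes passed without T3 replicate 2, T3 replicate 5 or T9 replicate 6. Of 20 mechanical stress genes, 4 rose and 2 passed without those same libraries. Ankrd2, for a stretch-responsive protein of the sarcomere, was at 406 to 2323 CPM (median 705) after T3 and 157 to 437 CPM (median 301) after T9 (1.52 ± 0.34, adjusted p = 0.00967).

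Transcripts of several genes of the IGF and insulin pathway changed, in both directions. The activity of the pathway was not measured. Igf1, the ligand, was at 1.64 to 7.96 CPM (median 5.63) after T3, 6.34 to 19.1 CPM (median 14.4) after T9 and 8.77 to 41.9 CPM (median 16.8) after sham. The T3 and T9 ranges met at their edges, with 4 T3 libraries below all T9 libraries (log2 change -1.41 ± 0.31, adjusted p = 0.00862), and the call was lost with no term for the number (adjusted p = 0.0664, with 0.000399 to 0.204 over all settings tried). Ghr, for the growth hormone receptor, was at 48.1 to 116 CPM (median 99.4) after T3 and 134 to 166 CPM (median 137) after T9 and fell with no overlap (-0.68 ± 0.16, adjusted p = 0.0143), and Grb14, for an adaptor that inhibits the insulin receptor, also fell (-1.08 ± 0.20, adjusted p = 0.00309). Akt1, for the kinase that relays insulin signals, was at 153 to 243 CPM (median 173) after T3 and 53.8 to 84.3 CPM (median 71.02) after T9 with no overlap (1.36 ± 0.18, adjusted p = 0.000305). Igfbp3, for an IGF-binding protein, rose by 1.15 ± 0.25 (adjusted p = 0.00773). With Pik3r1, the list of 21 therefore held 3 members that rose and 3 that fell, the same counts without any 1 library. Ghr is beyond the rule by which genes were named and was picked after its value was seen, as were Ube4b above and Sms, Phkg1, Pgm1, Ldha, Gyg, Gpi1, Pfkfb1, Pnpla2 and Pvalb below. Of 20 mTORC1 regulators and outputs, Eif4ebp1 and Sesn1 rose and none fell (10% called, against 7.60% of all genes). Of 23 ribosome biogenesis genes, 3 rose (Nop14, Wdr43 and Ncl), led by Nop14, a gene for a small-subunit processing factor, at 1.11 ± 0.20 (adjusted p = 0.00285), and 5 passed without sham replicate 4 or T3 replicate 4. None of 43 cytosolic ribosomal protein genes passed (median -0.04).

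Polyamine genes, many of which depend on androgen in muscle, fell in part after T3. Of 16 polyamine and androgen-dependent genes, 4 fell and 1 rose (median -0.49). Smox, for spermine oxidase, was at 44.6 to 86.4 CPM (median 55.8) after T3, 94.03 to 265 CPM (median 172) after T9 and 214 to 1019 CPM (median 404) after sham. All T3 libraries lay below all T9 libraries, and the T9 median lay below the sham median (log2 change -1.51 ± 0.31, adjusted p = 0.00528). Against sham, Smox changed by -2.78 after T3 (adjusted p = 1.59e-05) and -1.27 after T9 (adjusted p = 0.167). Amd1, for the decarboxylase that feeds polyamine synthesis, was at 86.98 to 272 CPM (median 125) after T3 and 224 to 376 CPM (median 321) after T9 (-1.10 ± 0.27, adjusted p = 0.015). Amd2 is a near copy of Amd1, so reads may be split between them, and its call (-1.10 ± 0.27, adjusted p = 0.016) was lost without T3 replicate 5 (adjusted p up to 0.0539 without 1 library). Sms, for spermine synthase, changed by -0.56 ± 0.15 (adjusted p = 0.0278) and was lost without T3 replicates 2 or 5 or T9 replicates 5 or 6 (adjusted p up to 0.0872 without 1 library). Srm, for spermidine synthase, rose instead, from 5.67 to 7.61 CPM (median 7.21) after T9 to 10.4 to 19.98 CPM (median 13.8) after T3, with no overlap (1.02 ± 0.15, adjusted p = 0.000525). Without T3 replicate 5, 2 members were lower. Within number 60 alone none passed, and within number 57 alone 2 rose and 5 fell. Of 15 genes of the myostatin and activin axis none passed, and myostatin itself (Mstn) changed by -0.13 ± 0.21 (adjusted p = 0.805).

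Genes of fatty acid use rose in part. Of 35 genes of fatty acid uptake and oxidation, 13 rose and none fell (median 0.51), and 9 to 15 passed without 1 library. Eci2, for an isomerase of unsaturated fatty acid breakdown, was at 88.9 to 148 CPM (median 121) after T3 and 54.7 to 79.7 CPM (median 63.8) after T9 with no overlap (log2 change 0.85 ± 0.13, adjusted p = 0.000827). Lpl, for the lipase that releases fatty acids from circulating lipoproteins, was at 1074 to 2061 CPM (median 1375) after T3 and 729 to 946 CPM (median 805) after T9, again apart (0.81 ± 0.16, adjusted p = 0.00444). Mlycd, for malonyl-CoA decarboxylase, rose by 0.84 ± 0.17 (adjusted p = 0.00487), and Pnpla2, for the lipase that starts triglyceride breakdown in the cell, by 1.48 ± 0.31 (adjusted p = 0.00674), a call lost with no term for the number (adjusted p = 0.0531, with 4.98e-05 to 0.26 over all settings tried). Within number 60 alone no member passed and within number 57 alone 10 did, with medians of 0.40 and 0.79, and 7 passed with the number left out of the model.

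In glycolysis and glycogen use, 5 of 29 genes rose and 6 fell. Among those that fell, Eno3, for muscle enolase, was at 2312 to 3496 CPM (median 2941) after T3 and 4582 to 6143 CPM (median 5129.8) after T9 (log2 change -0.79 ± 0.14, adjusted p = 0.00205). Tpi1, for triosephosphate isomerase, was at 952 to 1449 CPM (median 1159.5) after T3 and 1799 to 2279 CPM (median 1964) after T9 (-0.78 ± 0.13, adjusted p = 0.0011). Neither gene's groups overlapped, and the T9 ranges overlapped those of sham, at 5184 to 8245 CPM (median 5869) and 1988 to 2405 CPM (median 2205). Ldha (-0.77 ± 0.15, adjusted p = 0.00406), Pgm1 (-0.99 ± 0.21, adjusted p = 0.00636), Phkg1 (-1.11 ± 0.21, adjusted p = 0.00353) and Gpd1 were lower as well. Gpd1, for cytosolic glycerol-3-phosphate dehydrogenase, was at 55.9 to 192 CPM (median 142) after T3 and 256 to 519 CPM (median 437) after T9, with no overlap (-1.72 ± 0.31, adjusted p = 0.00226). Among the genes that rose, Gbe1, for the glycogen branching enzyme, was at 95.9 to 265 CPM (median 139.9) after T3 and 46.7 to 66.8 CPM (median 53.5) after T9 (1.497 ± 0.21, adjusted p = 0.000525), and Ugp2, for the enzyme that makes UDP-glucose, was at 1371 to 2359 CPM (median 1543) after T3 and 649 to 982 CPM (median 723) after T9 (1.14 ± 0.16, adjusted p = 0.000525). Gyg, for the glycogen primer glycogenin, rose by 0.56 ± 0.11 (adjusted p = 0.00487), all 3 with no overlap. The other 2, Gpi1 and Pfkfb1, lost their calls when libraries were left out (Gpi1 without T3 replicates 1, 2 or 5 or T9 replicates 1 or 5 (adjusted p up to 0.0758 without 1 library); Pfkfb1 without T3 replicates 5 or 6 or T9 replicates 1, 5 or 6 (adjusted p up to 0.0711 without 1 library)). Within number 60 alone none of the list fell and within number 57 alone 5 did.

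Genes of the respiratory chain and the TCA cycle did not pass. None of 48 nuclear genes of the respiratory chain, 15 mitochondrially encoded genes and 23 genes of the TCA cycle and pyruvate entry passed, with medians of -0.12, -0.26 and 0.22. All 15 mitochondrially encoded genes had a negative change in the main fit. Their median moved to -0.03 under quantile normalization and to -0.02 with the length and GC trend removed, and that of the nuclear respiratory chain genes to 0.0025 with the library median as a covariate. Of 17 genes of branched-chain amino acid catabolism, 3 rose (Dbt, Hibch and Mccc2), led by Dbt, for a subunit of the branched-chain ketoacid dehydrogenase, at 0.61 ± 0.13 (adjusted p = 0.0057). Mccc2 lost its call without T3 replicates 1, 2, 5 or 6 or T9 replicates 1, 4, 5 or 6 (adjusted p up to 0.0994 without 1 library), and Hibch after centring (adjusted p = 0.103) and quantile normalization (0.085, with 0.0019 to 0.321 over all settings tried). After centring 1 member of the list rose and 1 fell. In lipogenesis and cholesterol synthesis, Scd1, for the stearoyl-CoA desaturase, was at 11.1 to 26.8 CPM (median 17.2) after T3 and 27.5 to 76.8 CPM (median 44.8) after T9 with no overlap (-1.40 ± 0.32, adjusted p = 0.0113). Me1 also fell (-0.49 ± 0.11, adjusted p = 0.00932), and Acss2, for an acetyl-CoA synthetase, rose (1.22 ± 0.26, adjusted p = 0.00754).

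Some genes of fast fibres were lower after T3, but not the fast myosin genes. Of 20 fast-fibre genes, 6 fell and none rose (median -0.42), and 3 fell without T3 replicate 5 or without T9 replicate 6. Among the 6 is Gpd1, which the glycolysis list also holds. Casq1, for the calcium store protein of fast fibres, was at 388 to 786 CPM (median 739) after T3, 854 to 2017 CPM (median 1349.7) after T9 and 955 to 2085 CPM (median 1497) after sham. The T3 libraries lay below all T9 libraries (log2 change -1.09 ± 0.23, adjusted p = 0.00648). Sh3bgr fell by the same measure (-0.79 ± 0.17, adjusted p = 0.00716). The calcium buffer gene Pvalb was at 2409.9 to 7078 CPM (median 4680.5) after T3 and 6928 to 12440.0 CPM (median 8861) after T9 (-0.98 ± 0.26, adjusted p = 0.024), and its call was lost without T3 replicates 1, 2 or 5 or T9 replicates 1, 5 or 6 (adjusted p up to 0.0757 without 1 library). The fast myosin genes themselves did not pass: Myh4 changed by 0.40 ± 0.39 (adjusted p = 0.629), Myh1 by 0.33 ± 0.48 (adjusted p = 0.778) and Myh2 by 0.04 ± 0.51 (adjusted p = 0.98), with wide overlap. Of 29 excitation-contraction and channel genes, 1 rose and 2 fell (10.3% called, against 7.60% of all genes). The largest change among them was that of Aqp4, the water channel of fast fibres, at 1.88 to 11.001 CPM (median 6.69) after T3, 27.1 to 42.8 CPM (median 32.7) after T9 and 25.7 to 45.5 CPM (median 39.2) after sham, so that T9 and sham shared a range and T3 lay below it (-2.45 ± 0.31, adjusted p = 0.000228).

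The share of denervation genes that passed was near that of all genes. Of 20 denervation-induced genes, 2 passed (10%, against 7.60% of all genes). Both rose, Cdkn1a and Eda2r, which the p53 list also holds, and the median of the list was 0.0044. Myog, for a myogenic factor that rises in denervated muscle, was at 6.07 to 13.6 CPM (median 9.89) after T3 and 6.02 to 22.4 CPM (median 7.84) after T9 (log2 change 0.04 ± 0.45, adjusted p = 0.977). Chrna1, for the acetylcholine receptor alpha subunit, was at 6.90 to 28.4 CPM (median 11.2) after T3 and 9.43 to 24.02 CPM (median 15.6) after T9 (-0.34 ± 0.42, adjusted p = 0.73). Both genes overlapped between the groups nearly in full. In the gastrocnemius, below both lesions, the median T3 minus T9 change of the denervation list was -0.82.

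Most lists of markers of other cell types held no call. Of 11 macrophage markers, 2 rose, Gpnmb and Cd68 (18.2%, against 4.95% of all genes), and the median was -0.04. Gpnmb, for a lysosome-linked glycoprotein, was at 7.35 to 38.4 CPM (median 11.1) after T3, 0.405 to 1.71 CPM (median 1.10) after T9 and 0.225 to 12.6 CPM (median 0.873) after sham. All T3 libraries lay above all T9 libraries, and 1 sham library reached into the T3 range (log2 change 3.58 ± 0.69, adjusted p = 0.00386). Cd68, for a glycoprotein of late endosomes and lysosomes, was at 5.89 to 53.6 CPM (median 18.04) after T3 and 1.46 to 4.46 CPM (median 1.86) after T9, with no overlap (3.01 ± 0.69, adjusted p = 0.0112). Csf1r, the defining receptor of macrophages, was at 1.25 to 4.13 CPM (median 1.88) after T3 and 2.52 to 3.39 CPM (median 2.69) after T9 and did not pass (-0.35 ± 0.44, adjusted p = 0.725). The summed level of the 11 markers was 46.8 to 119.9 CPM (median 68.0) after T3, 24.7 to 72.0 (median 41.5) after T9 and 22.6 to 1095 (median 39.2) after sham. This sum includes Cd68 and Gpnmb, so it is not separate from their rise. Sham replicate 4 held the markers Lyz2 and Ctss at 705 and 85.8 CPM, against 9.01 to 25.9 and 1.57 to 4.12 in the other sham libraries. The part of macrophages in the rise of Cd68, Gpnmb and the cathepsin genes was not tested. No neutrophil marker was in the table. None of 15 myogenic and satellite cell, 16 endothelial, 3 T, B and NK cell, 7 Schwann cell and nerve, 4 tendon and 5 erythroid markers passed, nor did any of 10 limb position genes or 31 collagen and matrix genes. All Schwann cell and nerve, erythroid and T, B and NK cell markers had a negative change (medians -0.43, -0.44 and -0.36). The change was positive for 7 myogenic and satellite cell, 7 endothelial and 1 tendon marker, 4 limb position genes and 8 collagen and matrix genes.

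A few fibroblast and adipocyte markers fell after T3. Of 15 fibroblast markers 2 fell (13.3%, against 2.65% of all genes) and none rose, with a median of -0.57. All 15 had a negative change, from -1.21 to -0.0098. Pi16, for a protein of stem-like fibroblasts, was at 2.95 to 4.78 CPM (median 3.68) after T3 and 5.90 to 12.9 CPM (median 8.88) after T9 with no overlap (-1.21 ± 0.21, adjusted p = 0.00192). The call of Smoc2 was lost without sham replicate 6, T3 replicates 2 or 5 or T9 replicates 1, 2, 4, 5 or 6 (adjusted p up to 0.11 without 1 library). The summed level of the fibroblast markers was 563 to 1154 CPM after T3 and 749 to 1102 after T9, which overlapped. Of 10 adipocyte markers, 2 fell and 1 rose (30% called, against 7.60% of all genes), with a median of -0.89. The 2 that fell were Car3, which muscle fibres express too (-0.94 ± 0.21, adjusted p = 0.00972), and Adipoq, the adipocyte hormone adiponectin (-1.02 ± 0.30, adjusted p = 0.0417), whose call was lost without T3 replicates 1, 2, 3 or 5 or T9 replicates 1, 4, 5 or 6 (adjusted p up to 0.115 without 1 library). The 1 that rose was Cd36, the fatty acid carrier of muscle and fat (0.69 ± 0.17, adjusted p = 0.0155), a call lost without the T3 and T9 libraries of lowest median (adjusted p = 0.0563, with 0.00175 to 0.52 over all settings tried). Of 9 smooth muscle and pericyte markers 1 fell, Mcam (11.1% called, against 7.60% of all genes). Its call (-0.67 ± 0.18, adjusted p = 0.0238) was lost without T3 replicates 5 or 6 or T9 replicates 3, 4 or 6 (adjusted p up to 0.0642 without 1 library). The part of fewer fibroblasts or fat cells in the muscle samples was not tested.

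Large changes were also found in genes outside the lists. Krt80, for a keratin, was at 4.23 to 40.3 CPM (median 7.07) after T3, 0.579 to 1.57 CPM (median 0.992) after T9 and 0.305 to 0.903 CPM (median 0.645) after sham, with no overlap between T3 and the rest (log2 change 3.15 ± 0.47, adjusted p = 0.000568). Slc25a34, for a mitochondrial carrier, was at 80.5 to 269 CPM (median 142) after T3 and 22.3 to 37.2 CPM (median 34.6) after T9 (2.15 ± 0.27, adjusted p = 0.000228). Mknk2, for a kinase of the translation factor eIF4E, was at 557 to 2046 CPM (median 1338) after T3 and 139.7 to 424 CPM (median 347) after T9 (1.98 ± 0.34, adjusted p = 0.00179). Hgs, for an endosomal sorting protein, was at 40.5 to 176 CPM (median 128) after T3 and 8.80 to 24.5 CPM (median 22.2) after T9 (2.37 ± 0.39, adjusted p = 0.00135). The T3 libraries of these 4 genes all lay above the T9 libraries.

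Among genes that fell with large changes, Nrep, for neuronal regeneration-related protein, was at 2.66 to 42.7 CPM (median 11.1) after T3, 57.98 to 108 CPM (median 77.6) after T9 and 113 to 224 CPM (median 161) after sham. The T9 libraries lay wholly below the sham libraries and the T3 libraries wholly below T9 (-2.67 ± 0.40, adjusted p = 0.000692), while its change from sham to T9 did not pass (-1.08, adjusted p = 0.383). Mettl21c, for a lysine methyltransferase of muscle, was at 7.75 to 27.7 CPM (median 11.8) after T3, 36.3 to 82.4 CPM (median 43.03) after T9 and 42.7 to 192 CPM (median 136) after sham, which by median is the same order (-1.94 ± 0.28, adjusted p = 0.000528). Gdap1, for a mitochondrial outer membrane protein that is mutated in Charcot-Marie-Tooth neuropathy, was at 2.25 to 5.82 CPM (median 2.82) after T3 and 10.3 to 26.8 CPM (median 16.8) after T9 (-2.33 ± 0.26, adjusted p = 9.23e-05). Aurka, for a mitotic kinase, was at 1.497 to 2.69 CPM (median 1.73) after T3 and 5.25 to 10.4 CPM (median 5.78) after T9 (-1.73 ± 0.26, adjusted p = 0.000692). In all 4 genes the T3 and T9 libraries were apart. Cntnap2, Fam83d and Mdga1 also fell with no overlap, at -2.22 ± 0.39, -3.11 ± 0.67 and -1.79 ± 0.42 (adjusted p = 0.00213, 0.00716 and 0.012).

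Some entries among the largest changes are uncertain because their reads can belong to a neighbour or a copy. A gene ID listed as Aldoa, ENSMUSG00000114515, lies at chr7:126800790-126809108 beside the main Aldoa gene and changed by -2.97 ± 0.61 (adjusted p = 0.00564). Myhas, an antisense RNA of the myosin cluster, changed by -2.02 ± 0.43 (adjusted p = 0.00731), and no source used here says whether reads were counted by strand. Rbm3-ps is a pseudogene, with 1.90 ± 0.43 (adjusted p = 0.0105).

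**Figure D4:**
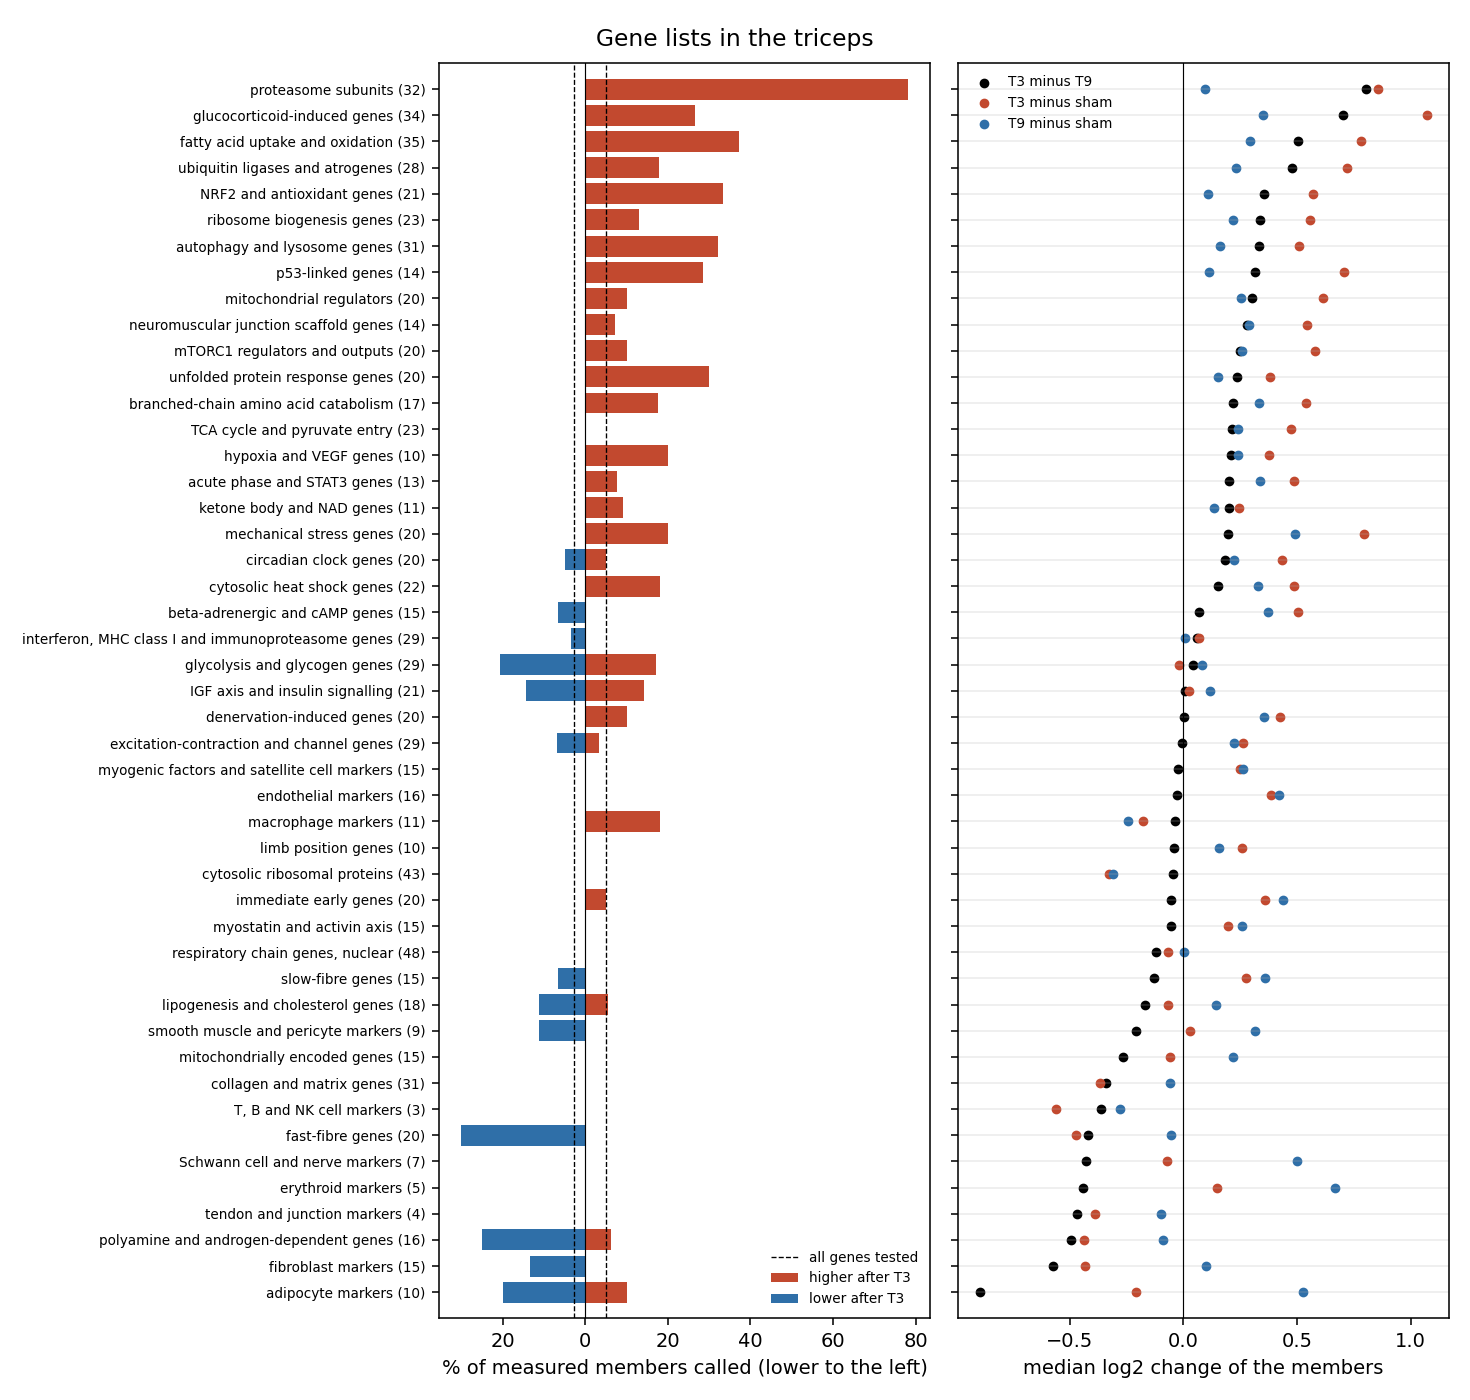
Share of measured members of 47 gene lists called higher (red, right) or lower (blue, left) after T3 than after T9, with dashed lines at 4.95% and 2.65% for all genes tested (left panel), and the median log2 change of the members in 3 comparisons (right panel; measured members in parentheses). The proteasome list has the longest bar, and its T9 minus sham median of 0.10 lies near 0.

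Clock, immediate early, adrenergic, acute phase and hypoxia lists had 1 or 2 calls each. In that order, 10%, 5%, 6.67%, 7.69% and 20% of their measured members were called, against 7.60% of all genes. Of 20 clock genes, 1 rose and 1 fell, the latter Bhlhe41 (-1.09 ± 0.24, adjusted p = 0.00962). Core clock genes such as Arntl (0.49 ± 0.41, adjusted p = 0.564) and Dbp (-0.35 ± 0.33, adjusted p = 0.616) did not pass. Of 20 immediate early genes, Ier3 rose, from 5.13 to 8.83 CPM (median 6.29) after T9 to 11.53 to 20.3 CPM (median 15.7) after T3 with no overlap (1.26 ± 0.18, adjusted p = 0.000525). Of 15 beta-adrenergic and cAMP genes, Crem, for a cAMP-responsive factor, fell: it was at 5.98 to 7.65 CPM (median 7.19) after T3 and 8.75 to 18.98 CPM (median 16.1) after T9, with no overlap (-1.09 ± 0.19, adjusted p = 0.00217). Nr4a3 and Nr4a1, which beta-adrenergic agonists and exercise raise in muscle, changed by -1.53 ± 0.59 (adjusted p = 0.133) and -0.80 ± 0.32 (adjusted p = 0.142) and did not pass. Of 13 acute phase and STAT3 genes, Il6ra, for the interleukin-6 receptor, rose (1.38 ± 0.25, adjusted p = 0.00284). Of 10 hypoxia and VEGF genes, Bnip3 and Egln3 rose, the latter, for an oxygen-sensing hydroxylase, from 69.9 to 128 CPM (median 102) after T9 to 169 to 473 CPM (median 297) after T3 (1.55 ± 0.24, adjusted p = 0.000741).

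Whether the effect of lesion level differed between muscles was tested in the 8 transected mice with both muscles, 4 after T3 and 4 after T9, with the mouse as a block. Of 11249 genes, 6 passed (0.0533%), and 1207 had an unadjusted p under 0.05. Values are given for 5 of the 6. Gpnmb, with 3.58 ± 0.69 in the triceps, changed by 0.22 ± 0.30 in the gastrocnemius, a difference of 3.25 ± 0.42 in these mice (adjusted p = 0.0245). Cd68 changed by -0.20 ± 0.47 in the gastrocnemius (difference 2.94 ± 0.32, adjusted p = 0.0206). Fbp2, for the muscle form of fructose bisphosphatase, fell in the triceps by this comparison (-1.21 ± 0.17, adjusted p = 0.000525) and had a change of 0.50 ± 0.28 in the gastrocnemius, which did not pass there (adjusted p = 0.447; difference -1.79 ± 0.21, adjusted p = 0.0206). Gadd45b and Ddit4l did not pass in the triceps (-0.17 ± 0.23 and -0.25 ± 0.26, adjusted p = 0.753 and 0.669) and changed by 1.69 and -1.03 in the gastrocnemius (differences -2.07 and 1.23, adjusted p = 0.0206 and 0.0354). Without the mouse of T3 replicate 3, T9 replicate 3 or T9 replicate 4 no gene passed, without that of T3 replicate 2, T3 replicate 1 or T9 replicate 2 there were 1, 4 and 4, and without that of T3 replicate 4 there were 140. For Trim63, the gastrocnemius change was 1.09 ± 0.27 and the difference between muscles did not pass (adjusted p = 0.145). The same held for Fbxo32, Mt1, Eno3 and Tpi1, with gastrocnemius changes of 0.71, -0.05, 0.42 and 0.34 and adjusted p of 0.245, 0.147, 0.11 and 0.132 for the difference. The proteasome list had a gastrocnemius median of 0.35, against -0.11 over all genes there, with 2 members higher (82 of all genes, 0.729%). In the triceps libraries of number 60, likewise 4 against 4, its median was 0.77 with 3 members higher.

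**Figure D5:**
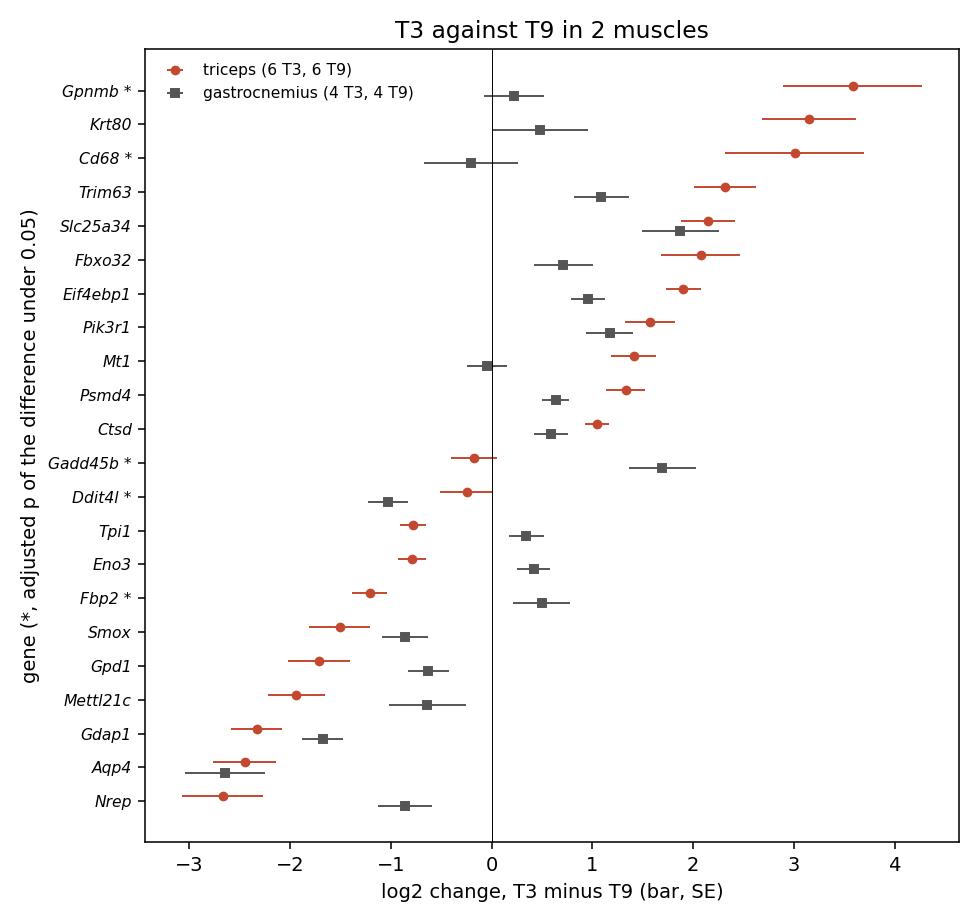
log2 change T3 minus T9 (x axis; bars, SE) of 22 genes in the triceps (red circles, 6 and 6 libraries) and the gastrocnemius (grey squares, 4 and 4 libraries). Asterisks mark the 5 of these genes whose change differed between muscles at an adjusted p under 0.05.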

How the data were processed

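Gene expression was measured in 30 libraries, of which 18 are from the triceps. The authors deposited log2 values, here taken as log2 CPM after adding 0.5 reads, because solving for reads returns whole numbers in 100% of cases (tolerance 0.01 reads). Per the submitters' processing notes, the tools included featureCounts, limma, Subread 1.5.1 and HISAT2 2.1.0, on GRCm38. No source used here states the annotation release, the strand setting or the authors' gene filter. A symbol was found for 11240 gene IDs and not for 9.

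All 18 triceps libraries were fitted with limma 3.58.1 in R 4.3.3 (two-sided moderated test with a mean-variance trend, Benjamini-Hochberg over 11249 genes, threshold 0.05), with a term for the number 57 or 60. Genes were kept if 4 or more libraries reached a log2 value of 0. Called means past that threshold, and a change is a difference of log2 values, which understates the change of genes with few reads. Members and gene lists (48 lists, 960 symbols, 863 of them in the file) were chosen with earlier results of these data known, and lists are described by counts and medians with no test. Named genes are the 15 largest rises and the 15 largest falls past the threshold (higher group's mean log2 value not under 1, no predicted genes), up to 4 members of a list with the smallest adjusted p, a fixed panel, and 5 per direction between muscles. The text gives a part of them, and some results are not reported here. Mice with both muscles were matched by the number after 57 or 60, which is an inference: their muscles deviated together in 8 of 8 mice (r = 0.136 to 0.524), and 6 of the 8 triceps libraries correlated best with the gastrocnemius of their own mouse. No replicate pair agreed within sampling noise (chi-square per degree of freedom 9.78 to 621). Alternatives covered normalization, filters, the variance model, library weights, the samples and terms of the model, and each library left out. Added after seeing the data were leaving out the T3 and T9 libraries with the lowest median and removing from every library its dependence on GC and transcript length. Depth is the sum of whole reads over genes, and reads are not independent molecules.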

Additional observations from a re-analysis of the deposited data

Results flagged for a closer look

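Of 266 groups of 6 values examined with Dixon's criterion (library measures and the named genes, T3 and T9 apart), 19 held a sample far from the others. Chance flags about 1 in 20 groups.

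T3 replicate 5 stood apart by its depth, 88.8 M reads (M, 1000000) against 15.7 to 23.4 in the other T3 libraries. The same library was lowest for Aqp4 (1.88 CPM against 6.10 to 11.001), Ghr (48.1 against 86.0 to 116), Me1 (129 against 184 to 226) and myostatin (Mstn, 25.6 against 75.0 to 90.7). It was highest for Gpnmb (38.4 CPM against 7.35 to 13.03) and the stress gene Gadd45b (41.8 against 13.5 to 17.1). T3 replicate 4 stood apart by its median log2 value, 3.71 against 3.99 to 4.07, and was lowest for Sesn1 (40.6 CPM against 67.0 to 86.4) and highest for Psme1 (31.0 against 22.7 to 25.4).

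Among T9 libraries, replicate 1, which has the lowest median of its group, was lowest for Hsp90ab1 (693 CPM against 1190 to 1499), Hsph1 (48.9 against 72.6 to 85.4), Mknk2 (139.7 against 286 to 424), Ncl (137 against 177 to 202), Usp14 (22.8 against 29.6 to 31.9) and Gpnmb (0.405 against 1.01 to 1.71). Replicate 5 was highest for Aurka (10.4 CPM against 5.25 to 6.65) and Ldha (2760 against 2049 to 2284), and replicate 6 was lowest for Sh3bgr (537 against 687 to 757).

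For 6 genes the T3 minus T9 change differed between muscles (limma interaction, adjusted p under 0.05), and 5 of them are given here. The difference, triceps minus gastrocnemius on the log2 scale, was 3.25 for Gpnmb, 2.94 for Cd68, 1.23 for Ddit4l, -1.79 for Fbp2 and -2.07 for Gadd45b.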

How the results depend on the processing

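Of 99 named genes that passed, none changed sign under any alternative and 86 passed without each single library. The alternatives reuse the libraries that gave the calls, so the kept signs are no separate evidence. In part of them the estimated change could not move, as with another variance model, no term for the number or a sham library left out. The filter removed no gene, so leaving it out repeated the main fit. The total of 855 (557 higher, 298 lower) stayed within 1.5 times under most settings, and these moved further: library weights (2300, with 1488 higher and 812 lower), the library median as a covariate (2212, 1255 and 957), the length and GC trend removed, an alternative added after seeing the data (1440, 963 and 477), number 60 alone (50, 35 and 15) and number 57 alone (352, 201 and 151). For lower genes only, quantile normalization gave 455 and the model with no term for the number 198. Without 1 library the total was 539 to 1066, with 371 to 715 higher and 168 to 360 lower. The replicate numbers of the titles were not taken as a pairing: deviations of same-numbered T3 and T9 libraries correlated above 0.1 in 2 of 6 pairs (r from -0.50 to 0.54), and 1 T3 library correlated best with its own number. With the replicate number as a block 688 genes passed, and 95 of the 99 named genes kept their call.

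Between muscles, 6 genes passed, against 27 after centring, 30 after quantile normalization, 0 with the mouse block left out and 0 to 140 without 1 mouse. Centring kept the calls of 92 of the 99 named genes and quantile normalization those of 93. The planned count tests, edgeR and DESeq2, were not run because the deposited unit is log2; voom weights on the recovered reads gave 974. The causes of these shifts were not tested. The shallowest of the 12 libraries held 13.9 M reads, and the added 0.5 reads understate the changes of genes with few reads.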
